A study of Homo sapiens with 12 samples.

Results

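The proteasome genes described here are the 45 protein-coding genes, of 58735 genes in the deposited tables, whose symbols consist of PSMA, PSMB, PSMC, PSMD, PSME, PSMF or PSMG and a number, without the immunoproteasome subunits PSMB8, PSMB9 and PSMB10. The rule for choosing them uses no measured value, but it was set with earlier results of these data known. By role they are 8 genes of the 20S alpha ring, 8 of the 20S beta ring, 6 ATPases of the 19S base, 3 other subunits of the base, 8 subunits of the 19S lid, 3 assembly chaperones of the 19S particle, 4 assembly chaperones of the 20S core, 4 genes of activator caps and PSMF1, which encodes the regulator PI31. Of the 45 genes, 43 passed the filter on low counts and were tested in every comparison. PSMA8 and PSMB11 did not pass it.

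RNA was measured by sequencing in 12 libraries of MDA-MB-231, a widely used, established cell line from a triple-negative breast cancer with basal-like features. The libraries carried a guide RNA against UFL1 (sgUFL1), a guide RNA against UFM1 (sgUFM1), or a control guide titled as the control of one of them (sgCtrl_to_sgUFL1 and sgCtrl_to_sgUFM1), with 3 libraries in each of the 4 groups. In UFMylation, cells couple the ubiquitin-like modifier UFM1 to target proteins, and UFL1 is the ligase of that reaction. The labels speak both of knockdown and of knockout, give no time after the guide was introduced, and do not say whether replicates came from separate cultures or clones or how many guides were used. P-values therefore reflect only how these libraries vary, and that variation may be technical. In RNA from pooled cells, fewer cells expressing a gene and less of its RNA per cell cannot be told apart.

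The count and FPKM tables disagree on the names of 2 groups. The values in the 3 columns that the count table names sgUFL1 were those that the FPKM table names sgCtrl_to_sgUFM1, and the reverse held for the other 3 columns. Below, set 1 is the group named sgUFL1 in the count table and sgCtrl_to_sgUFM1 in the FPKM table, and set 2 is the group named sgCtrl_to_sgUFM1 in the count table and sgUFL1 in the FPKM table. Both tables name sgUFM1 and sgCtrl_to_sgUFL1 alike. All 6 comparisons between pairs of groups are given, so that each can be read under either naming. The difference of differences, which is the change of sgUFM1 from its own controls minus the change of sgUFL1 from its own controls, has the same value under both namings, because set 1 and set 2 enter it with the same sign.

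The library totals ran from 15342793 to 18033331 counts. The proteasome genes took 0.718% to 0.839% of the counts of a library. Weighted by counts, transcript GC content averaged 48.33% to 49.38% in the 3 sgCtrl_to_sgUFL1 libraries and 49.81% to 50.94% in the other 9. Levels below are TMM-scaled CPM for comparisons between libraries, and FPKM, which is per length, for comparisons between genes. UFL1 was at 19.8, 24.5 and 30.3 CPM in sgCtrl_to_sgUFL1, 16.7, 19.3 and 18 in set 1, 12.7, 11.4 and 13.2 in set 2, and 20.5, 25 and 23.6 in sgUFM1, so it was lowest in set 2. Its log2 change from sgCtrl_to_sgUFL1 was -1.02 in set 2 (edgeR adjusted p = 0.0017) and -0.45 in set 1 (adjusted p = 0.13). With offsets for GC content and length the value of set 2 was -0.47 and missed the threshold (adjusted p = 0.051). Between sgUFM1 and set 2, UFL1 was called higher in sgUFM1 both without and with the offsets. Its libraries in set 2 also lay below those of set 1 without overlap, but it was not called between these groups. UFM1 was at 59.7, 65.8 and 71.2 CPM in sgCtrl_to_sgUFL1, 49.4, 57 and 54 in set 1, 51.3, 54.7 and 55.3 in set 2, and 37.1, 39.6 and 39.3 in sgUFM1, so it was lowest in sgUFM1, with a change of -0.47 against each of set 1 (adjusted p = 0.01) and set 2 (adjusted p = 0.00012), and of -0.58 and -0.76 with the offsets. Of markers of the cell type, all 6 mesenchymal basal-like genes were detected in each library (34.5 to 1517 CPM). Of the luminal list, ESR1 and CDH1 stayed at or below 0.744 CPM and PGR at or below 1.16. GATA3 had 1.45 to 5.62 CPM, EPCAM 5.88 to 9.73, ERBB3 6.03 to 12.3 and FOXA1 17 to 26.1. Leukocyte markers stayed at or below 4.19 CPM, the highest value of CD14, with CD3E at 0 in all libraries and PTPRC at up to 0.363. Fibroblast and endothelial markers stayed at or below 16.1 CPM, the highest value of COL1A1, with PDGFRB and KDR at up to 8.87, DCN at up to 0.242 and CDH5 at up to 0.193.

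The proteasome is the large protease that breaks down most short-lived and damaged proteins that carry ubiquitin chains. Its 20S core is a barrel of alpha rings, which form the gate, around beta rings, which hold the proteolytic sites, and the 19S particle at either end recognises ubiquitin, removes it and unfolds the substrate with a ring of ATPases. Cells keep the subunits in proportion largely by transcribing their genes together, and the factor NRF1 (NFE2L1) raises them when proteasome activity is short, through antioxidant response elements (ARE) in their promoters. UFMylation acts mainly on ribosomes at the endoplasmic reticulum, where proteins that fail quality control are sent to the proteasome.

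RefSeq (GRCh38.p14) held a promoter window, from 250 bases before to 50 bases after the start, for 39 of the 45 genes. PSMA7 and PSMB7 were not among them, and for the 7 genes with more than 1 window the one listed first was used. These windows were searched on both strands for 4 motifs. The ARE core TGACNNNGC was found in 12 of the 39 windows (30.8%), against 13.3% of all 35116 windows of this length. CCAAT was found in 18 (46.2%, against 34.6%), the GC box GGGCGG in 26 (66.7%, against 45%) and AAGATGGC, the core bound by YY1, in 4 (10.3%, against 2.89%). Over the 22198 windows of protein-coding genes the shares were 13.8%, 34.7%, 56.3% and 3.53%. A match is a description of the letters, not a bound site.

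Upstream stretches are shown for 5 genes that were called in the difference of differences without offsets. PSMG4, PSMB5 and PSMD3 were lower in it, and PSMC6 and PSMD12 were higher. In each direction they have the smallest p among the called genes with a window and an exon-free stretch of at least 100 bases. PSMA7 and PSMB7 had no window, and PSME4 and PSMD5 had no such stretch. Each is the longest run within 200 bases before the start that no GENCODE exon covers. Motif matches on either strand are in capitals, and no matches of different motifs overlap.
PSMG4 (chr6:3258747-3258893, plus strand): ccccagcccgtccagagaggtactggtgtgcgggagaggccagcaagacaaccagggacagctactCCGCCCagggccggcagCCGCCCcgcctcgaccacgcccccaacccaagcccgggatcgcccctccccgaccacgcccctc
PSMB5 (chr14:23035231-23035420, minus strand): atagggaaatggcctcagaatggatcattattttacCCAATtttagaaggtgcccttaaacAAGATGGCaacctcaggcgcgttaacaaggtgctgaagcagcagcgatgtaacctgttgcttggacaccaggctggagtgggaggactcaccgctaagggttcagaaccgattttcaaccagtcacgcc
PSMD3 (chr17:39980607-39980796, plus strand): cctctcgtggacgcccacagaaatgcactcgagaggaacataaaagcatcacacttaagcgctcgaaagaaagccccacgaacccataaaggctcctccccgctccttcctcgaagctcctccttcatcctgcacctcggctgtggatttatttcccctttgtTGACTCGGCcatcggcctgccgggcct
PSMC6 (chr14:52707000-52707171, plus strand): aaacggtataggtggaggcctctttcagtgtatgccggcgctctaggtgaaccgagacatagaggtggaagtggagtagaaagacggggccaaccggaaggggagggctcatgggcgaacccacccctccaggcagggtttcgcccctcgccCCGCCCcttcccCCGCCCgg
PSMD12 (chr17:67366628-67366777, minus strand): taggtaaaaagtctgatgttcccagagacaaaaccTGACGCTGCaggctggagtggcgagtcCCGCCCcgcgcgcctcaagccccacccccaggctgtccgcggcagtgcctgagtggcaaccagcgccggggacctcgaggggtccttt
The PSMG4 stretch holds GC boxes starting 134 and 117 bases before the start. PSMB5 has a CCAAT match at 164 and the YY1-type core at 139 bases before the start, and no GC box in this stretch. An ARE core lies 37 bases before the start of PSMD3, which was lower, and 165 bases before that of PSMD12, which was higher. PSMC6 has GC boxes at 48 and 36 bases. GC boxes and ARE cores were thus both found before genes that were higher and before genes that were lower. With the offsets for GC content and length given below, PSMD3, PSMC6 and PSMD12 were not called, and PSMC6 and PSMD12 turned in direction.

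The proteasome genes were abundantly transcribed. Over the 12 libraries, 41 of them had a mean of at least 1 FPKM, 38 of at least 10 and 9 of at least 100. The median of the 41 was 35.6 FPKM, beside 7.97 FPKM for the 10531 protein-coding genes with at least 1 FPKM. The highest were PSMD2, the large scaffold of the 19S base, with 185 ± 17.6 FPKM (SD, n = 12 libraries), the alpha subunit PSMA7 with 177 ± 35.1, and the beta subunits PSMB4 with 160 ± 18.2 and PSMB3 with 154 ± 24.7. They were followed by PSMB7 at 128, the ATPase PSMC4 at 125, PSMB5 at 120, the ATPase PSMC3 at 110 and PSMB1 at 103 FPKM. In this order, the ranges over the 12 libraries of neighbouring genes overlapped in all but 2 of 40 pairs, so most neighbours cannot be ranked. The 2 gaps lay on either side of PSMA1.

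**Figure D1:**
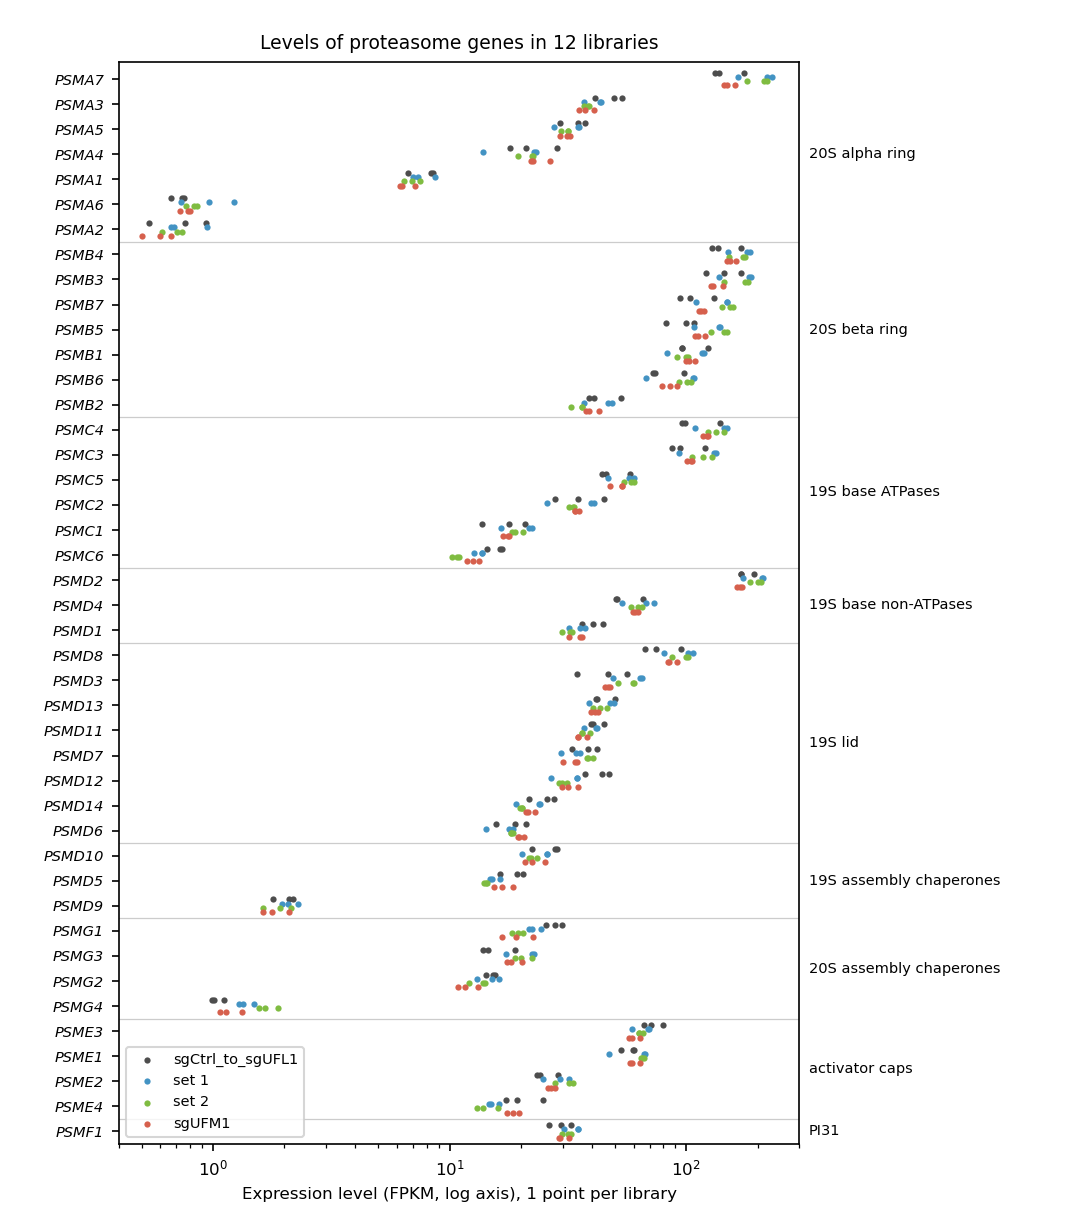
Expression level (FPKM, log axis) of 43 proteasome genes, 1 point per library, grouped by role and coloured by group. PSMD2 (164 to 210 FPKM) and PSMA7 (132 to 230 FPKM) are highest, while PSMA2 and PSMA6 lie around 1 FPKM or below.

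Subunits that enter the particle in equal numbers were far from equal in FPKM. Within the alpha ring, PSMA7 stood at 177 FPKM, PSMA3 at 41.2, PSMA5 at 32.1, PSMA4 at 21.9, PSMA1 at 7.25, PSMA6 at 0.821 and PSMA2 at 0.695. The low values of 3 of them coincide with shared annotation. Of the coding bases, 88.6% in PSMA1, 97.1% in PSMA2 and 70.4% in PSMA6 also belong to another annotated gene on the same strand, such as AC018523.2 at PSMA1, AC010132.3 at PSMA2 and AL121594.1 at PSMA6. The pseudogene PSMA6P1 had 36.4% of the count of PSMA6. PSMD9, with 1.96 FPKM, shares 58.7% of its coding bases with WDR66 or AC069503.2. How reads over such bases were assigned is not given in the sources used here, so the levels of PSMA1, PSMA2, PSMA6 and PSMD9 are uncertain. On the other strand, PSMC1 shares 47.7% and PSMD7 28.4% of the coding bases with another gene, and strand was not stated. PSMG4 has 10418 annotated exonic bases, 15% of which overlap genes on the other strand, mainly SLC22A23, so that its 1.32 FPKM rests on a long gene model.

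The other genes filled the range between. The beta ring held PSMB6 at 90.2 and PSMB2 at 40.8 FPKM. The ATPases PSMC5, PSMC2, PSMC1 and PSMC6 were at 53.3, 34.6, 18.6 and 13.1 FPKM. In the base, the ubiquitin receptor PSMD4 was at 60.8 and PSMD1 at 35.4. Lid subunits ran from PSMD8 at 89.5 over PSMD3 (52.1), PSMD13 (43.5), PSMD11 (38.7), PSMD7 (35.6) and PSMD12 (34.2) to the deubiquitinase PSMD14 (22.4) and PSMD6 (18.4). Assembly chaperones were lower than most subunits, with PSMD10 at 23.8, PSMD5 at 16.3, PSMG1 at 22.3, PSMG3 at 18.9 and PSMG2 at 13.8 FPKM. Among activators, PSME3 stood at 65.5, PSME1 at 60.7, PSME2 at 28 and PSME4 at 17.1, and PI31 (PSMF1) was at 31.1. PSMA8, an alpha subunit of the testis, had 0 counts in all 12 libraries, which allows up to 0.166 to 0.196 CPM per library for counting error only. PSMB11, the catalytic subunit of the thymus, had a count in 1 library of set 1 (0.0617 CPM) and none in the other 11.

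The FPKM of the genes of a role were summed in each library. The beta ring summed to 726 ± 110 FPKM (SD, n = 3) in sgCtrl_to_sgUFL1, 850 ± 136 in set 1, 859 ± 66.9 in set 2 and 746 ± 25.4 in sgUFM1. The alpha ring summed to 262 ± 34.4, 308 ± 48.9, 303 ± 24.8 and 251 ± 6.98, and the ATPases to 330 ± 59.9, 377 ± 63.1, 372 ± 26.1 and 341 ± 9.38, in the same order. The other base subunits summed to 274 ± 25.9, 297 ± 32.5, 291 ± 14.4 and 264 ± 3.88, and the lid to 335 ± 35.3, 345 ± 44, 341 ± 17.9 and 317 ± 12.6. The 19S chaperones were at 47 ± 5.26, 41.4 ± 3.86, 38.5 ± 0.867 and 41.5 ± 3.67, the 20S chaperones at 59.5 ± 4.49, 59.8 ± 4.95, 54.9 ± 3.92 and 51.1 ± 2.01, and the activators at 176 ± 12.5, 170 ± 19.5, 174 ± 2.99 and 166 ± 8.24. Both core rings had their higher means in sets 1 and 2. Set 2 lay above sgUFM1 without overlap in the sums of the alpha ring, the beta ring and the other base subunits, and below sgCtrl_to_sgUFL1 in that of the 19S chaperones. For the 20S chaperones, sgUFM1 lay below sgCtrl_to_sgUFL1 and set 1 without overlap. All other pairs of groups overlapped in these 8 sums. A test of 3 libraries against 3 on such a sum cannot go below an exact permutation p of 0.1.

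The proteasome genes moved together in single libraries. Replicate 1 of set 1 was the lowest of its 3 libraries in 39 of the 43 tested genes, and replicate 1 of set 2 was the lowest in 36. Replicate 2 of sgCtrl_to_sgUFL1 was the highest of its group in 32. These positions were not counted over all genes, so they are not shown to be particular to the proteasome genes. Over 14989 genes of any kind, replicates 1 and 2 of set 1 differed with a chi-square per gene of 20.5. Replicates 2 and 3 of that group differed with 2.41. The median deviation of the 43 genes from their means over 12 libraries was -0.15 (log2) in replicate 1 of set 1, beside 0.18 and 0.16 in replicates 2 and 3. It was 0.16 in replicate 2 of sgCtrl_to_sgUFL1, beside -0.12 and -0.06 in the other two. The 3 sgUFM1 libraries lay closest together, at -0.07, -0.10 and -0.02. Results that turn on replicate 1 of set 1 or replicate 2 of sgCtrl_to_sgUFL1 are given below with and without that library.

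**Figure D2:**
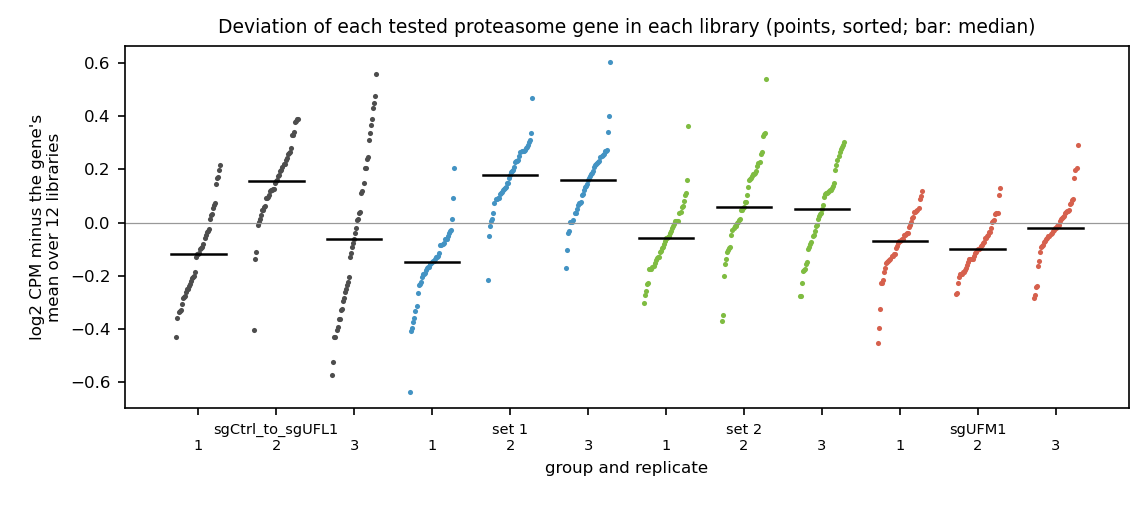
Deviation of the log2 CPM of each of 43 proteasome genes from its mean over 12 libraries, 1 point per gene, sorted within each library, with the median as a bar. Replicate 1 of set 1 has a median of -0.15, against 0.18 and 0.16 for the other replicates of that group.

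Which proteasome genes differed was asked for each pair of groups with edgeR's quasi-likelihood test, with p-values adjusted by Benjamini-Hochberg over all genes tested and a threshold of 0.05. In sgUFM1 against sgCtrl_to_sgUFL1, 0 of 43 genes were higher and 2 lower, where 5.57% of all genes tested were higher and 4.43% lower. In set 1 against sgCtrl_to_sgUFL1, 0 were higher and 0 lower (background 1.08% and 0.02%). There 9 of the 43 had an unadjusted p under 0.05, beside 4205 of all 14996 genes tested. DESeq2 called 2 higher and 2 lower. In set 2 against sgCtrl_to_sgUFL1, 4 were higher and 9 lower (background 17.4% and 18.4%). In sgUFM1 against set 2, 4 were higher and 10 lower (background 19.3% and 18.5%). In sgUFM1 against set 1, 1 was higher and 1 lower (background 4.57% and 5.15%). Between set 2 and set 1, 0 were higher and 0 lower (background 1.49% and 0.705%). There 5 of the 43 had an unadjusted p under 0.05, beside 3002 of all 15033 genes tested. DESeq2 called 0 higher and 1 lower. The share of all genes called by DESeq2 was not determined. In the difference of differences, 4 were higher and 8 lower (background 17% and 17.9%).

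Of the 43 genes, 19 were called in at least 1 of the 6 pairs and 24 in none. All 31 of these calls were of genes whose libraries did not overlap between the groups. How many of all genes were called in at least 1 pair, or called without overlap, was not determined. The comparisons share groups and are not independent of each other. The median change over the 43 genes was -0.07 (log2) in sgUFM1 against sgCtrl_to_sgUFL1, 0.06 in set 1 and -0.04 in set 2 against those controls, -0.08 in sgUFM1 against set 2 and -0.14 in sgUFM1 against set 1. The median over all genes tested was -0.03 in set 2 against sgCtrl_to_sgUFL1, 0.01 in sgUFM1 against set 2 and -0.01 in sgUFM1 against set 1. Under the count table's names, the proteasome genes thus showed 0 calls for sgUFL1 and 14 for sgUFM1 against their own controls. Of all genes tested, 1.08% were higher and 0.02% lower in the former comparison, and 19.3% and 18.5% in the latter. Under the FPKM table's names the proteasome genes showed 13 calls for sgUFL1 and 2 for sgUFM1. Here 17.4% of all genes were higher and 18.4% lower in the former comparison, and 4.57% and 5.15% in the latter.

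**Figure D3:**
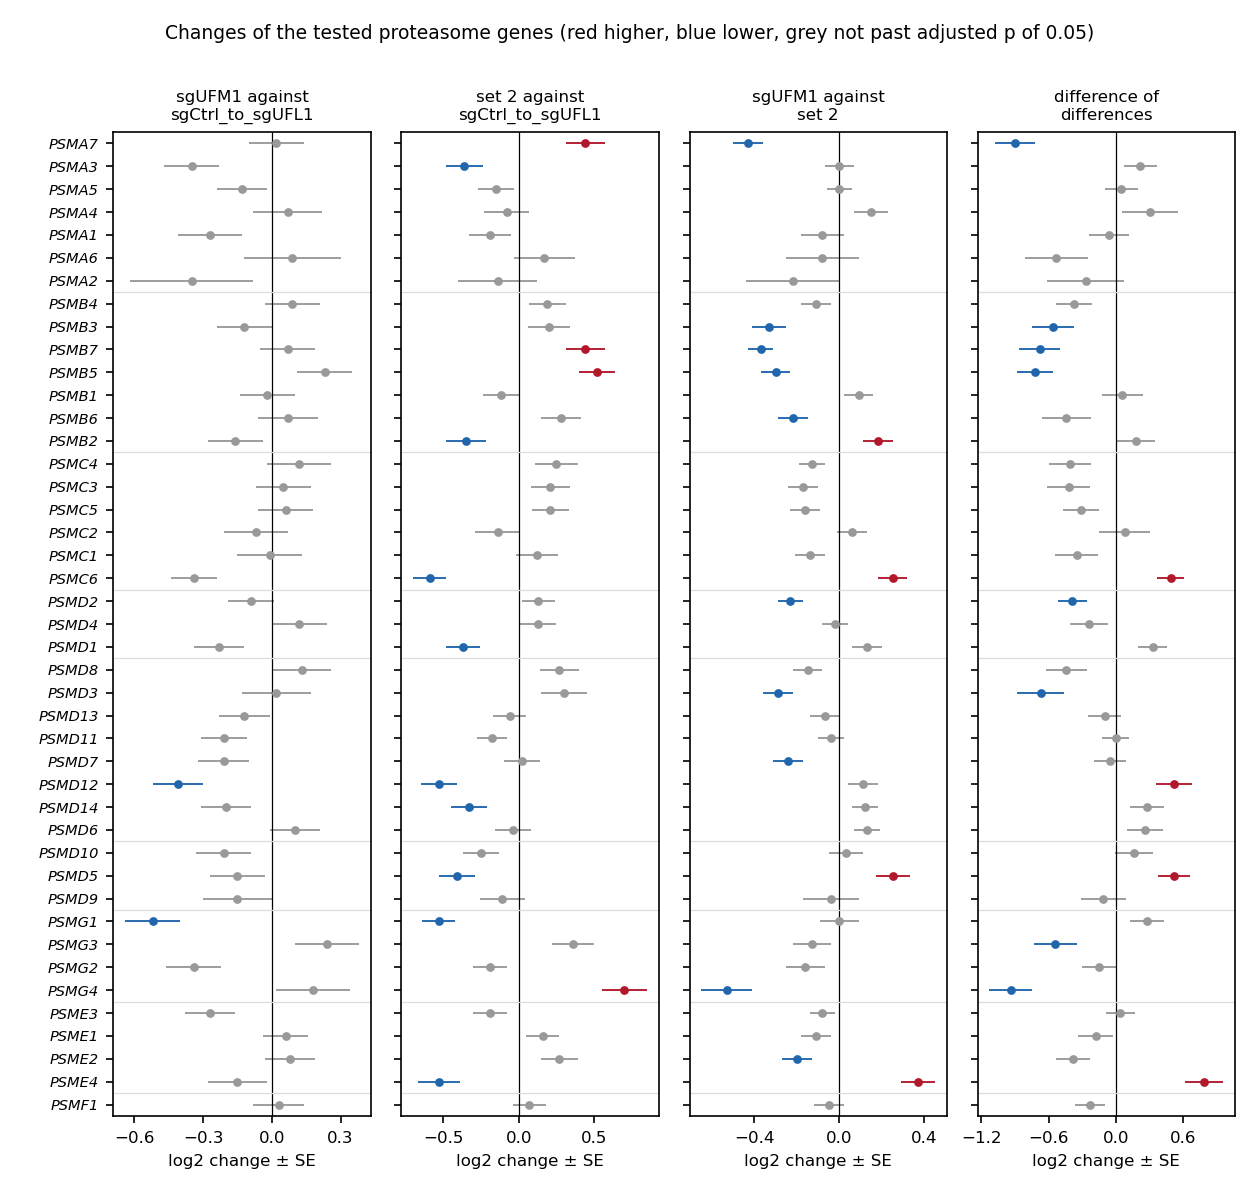
Log2 change ± SE (edgeR) of the 43 tested proteasome genes in 4 comparisons, grouped by role. Red and blue points passed an adjusted p of 0.05. PSMA7, PSMB5, PSMB7 and PSMG4 are higher in set 2 against sgCtrl_to_sgUFL1 and lower in sgUFM1 against set 2.

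In the alpha ring, PSMA7 was the gene with the most evident contrast. PSMA7 (ENSG00000101182, chromosome 20, 62136735 to 62143440, minus strand) had 245, 308 and 234 CPM in sgCtrl_to_sgUFL1, 291, 388 and 406 in set 1, 320, 388 and 376 in set 2 and 283, 255 and 260 in sgUFM1. The libraries of sgUFM1 lay below every library of sets 1 and 2, and those of set 2 above every library of sgCtrl_to_sgUFL1. PSMA7 was lower in sgUFM1 than in set 2 by a log2 change of -0.43 (SE 0.07, edgeR adjusted p = 8e-05) and lower than in set 1 by -0.44 (SE 0.11, adjusted p = 0.035). It was higher in set 2 than in sgCtrl_to_sgUFL1 by 0.44 (SE 0.13, adjusted p = 0.017), and the value for set 1, 0.48 (SE 0.16), missed the threshold with an adjusted p of 0.1. The difference of differences was -0.90 (SE 0.18, adjusted p = 0.002). PSMA3 was lower in set 2 than in sgCtrl_to_sgUFL1, at 116 to 122 CPM against 130 to 169. PSMA1, PSMA2, PSMA4, PSMA5 and PSMA6 passed in no comparison.

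In the beta ring, 2 of the 3 genes with constitutive proteolytic sites followed PSMA7. PSMB5, which carries the chymotrypsin-like site that bortezomib inhibits, lies on chromosome 14 (23016543 to 23035230, minus strand). It had 179, 191 and 146 CPM in sgCtrl_to_sgUFL1, 192, 246 and 247 in set 1, 227, 265 and 259 in set 2 and 213, 194 and 198 in sgUFM1. Set 2 lay above both sgCtrl_to_sgUFL1 and sgUFM1 with no overlap, by log2 changes of 0.52 against the former (SE 0.12, edgeR adjusted p = 0.0062) and -0.30 for sgUFM1 against set 2 (SE 0.07, adjusted p = 0.0017). PSMB7, with the trypsin-like site, had 188, 235 and 169 CPM in sgCtrl_to_sgUFL1, 199, 267 and 266 in set 1, 254, 285 and 277 in set 2 and 205, 207 and 214 in sgUFM1. Its changes were 0.44 in set 2 against sgCtrl_to_sgUFL1 (SE 0.13, adjusted p = 0.017) and -0.37 in sgUFM1 against set 2 (SE 0.06, adjusted p = 0.00011). The difference of differences was -0.72 for PSMB5 (SE 0.16, adjusted p = 0.0041) and -0.68 for PSMB7 (SE 0.18, adjusted p = 0.0081). In sgUFM1 against sgCtrl_to_sgUFL1, where no proteasome gene was called higher, PSMB5 had the smallest p of the positive changes, with 0.23 (SE 0.12, adjusted p = 0.21).

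The other beta subunits changed less. PSMB6, with the caspase-like site, and the structural subunit PSMB3 were lower in sgUFM1 than in set 2, by -0.22 and -0.33 (log2). PSMB2 went the other way in sgUFM1 against set 2: its 189, 184 and 208 CPM in sgUFM1 lay above the 160, 177 and 178 in set 2, a log2 change of 0.18 (SE 0.07, edgeR adjusted p = 0.039). PSMB2 was also lower in set 2 than in sgCtrl_to_sgUFL1 by -0.35. PSMB1 and PSMB4 passed in no comparison. The summed FPKM of PSMB5, PSMB6 and PSMB7 was 287 ± 44.5 in sgCtrl_to_sgUFL1, 358 ± 62.1 in set 1, 391 ± 25.5 in set 2 and 315 ± 11.3 in sgUFM1 (SD, n = 3). The immunoproteasome subunits PSMB8, PSMB9 and PSMB10, which replace them under interferon, summed to 32.5 ± 2.93, 40.6 ± 5.51, 42.2 ± 1.88 and 38 ± 3.1 FPKM, and in set 2 against sgCtrl_to_sgUFL1 PSMB9 and PSMB10 were higher by 0.53 and 1.13 (log2). With offsets for GC content and length, PSMB9 was at 0.46 (edgeR adjusted p = 0.03) and PSMB10 at 0.49, which missed the threshold (adjusted p = 0.21).

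Of the 6 ATPases only PSMC6 passed in any comparison. PSMC6 (chromosome 14, 52707172 to 52728587, plus strand) had 110, 123 and 126 CPM in sgCtrl_to_sgUFL1, 95.8, 104 and 103 in set 1, 83.3, 76.8 and 80.8 in set 2 and 88.9, 100 and 94.9 in sgUFM1. Set 2 lay below each of the other groups without overlap. The log2 change was -0.59 in set 2 against sgCtrl_to_sgUFL1 (SE 0.11, edgeR adjusted p = 0.0023) and 0.25 in sgUFM1 against set 2 (SE 0.07, adjusted p = 0.013). Against set 1, set 2 was at -0.32 (SE 0.07), with an adjusted p of 0.053 and the smallest p of the proteasome genes in that comparison. The difference of differences was 0.49 (SE 0.12, adjusted p = 0.0063). Without replicate 1 of set 1, the value of set 2 against set 1 was -0.35 and passed the threshold (adjusted p = 0.0051). PSMC1, PSMC2, PSMC3, PSMC4 and PSMC5 passed in no comparison.

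In the 19S base and lid, the directions were mixed as well. PSMD2, the most abundant transcript of the family, had 938, 1059 and 939 CPM in sgCtrl_to_sgUFL1, 957, 1150 and 1152 in set 1, 1021, 1141 and 1105 in set 2 and 931, 902 and 941 in sgUFM1. It was lower in sgUFM1 than in set 2 by -0.23 (log2), with no overlap, and its difference of differences was -0.39 (edgeR adjusted p = 0.033). PSMD3, a lid subunit, had 258, 298 and 303 CPM in set 2 and 237, 226 and 233 in sgUFM1, a log2 change of -0.29 (SE 0.07, adjusted p = 0.0016). Its difference of differences was -0.67 (adjusted p = 0.019). PSMD7, the partner of the deubiquitinase PSMD14, had 81.5, 94.4 and 98 CPM in set 1, 105, 111 and 106 in set 2 and 95.1, 83.6 and 93.1 in sgUFM1. It was lower in sgUFM1 than in set 2 by -0.24 (adjusted p = 0.013), and its 0.24 in set 2 against set 1 (SE 0.08) did not pass (adjusted p = 0.14).

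PSMD12, another lid subunit, ran the other way. PSMD12 (chromosome 17, 67337916 to 67366627, minus strand) had 202, 237 and 254 CPM in sgCtrl_to_sgUFL1, 145, 187 and 187 in set 1, 156, 169 and 161 in set 2 and 162, 171 and 188 in sgUFM1. The sgCtrl_to_sgUFL1 libraries lay above all 9 others. The log2 change was -0.53 in set 2 (SE 0.12, edgeR adjusted p = 0.0046) and -0.41 in sgUFM1 (SE 0.11, adjusted p = 0.039) against those controls, and -0.40 in set 1 (SE 0.14) missed the threshold with an adjusted p of 0.11. The difference of differences was 0.52 (SE 0.16, adjusted p = 0.019). PSMD1 and PSMD14 were lower in set 2 than in sgCtrl_to_sgUFL1 by -0.37 and -0.33. PSMD4, PSMD6, PSMD8, PSMD11 and PSMD13 passed in no comparison.

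Among the assembly chaperones of the 20S core, PSMG1 and PSMG4 changed in opposite directions. PSMG1, which pairs with PSMG2, lies on chromosome 21 (39174769 to 39183851, minus strand) and had 65, 70.8 and 75.4 CPM in sgCtrl_to_sgUFL1, 56.5, 62 and 54.7 in set 1, 46.8, 52.1 and 49.4 in set 2 and 42.5, 48.5 and 56.6 in sgUFM1. PSMG1 was lower than in sgCtrl_to_sgUFL1 by -0.53 (log2) in set 2 (SE 0.11, edgeR adjusted p = 0.0041) and by -0.52 in sgUFM1 (SE 0.12, adjusted p = 0.023). PSMG4, which pairs with PSMG3, lies on chromosome 6 (3231403 to 3303373, plus strand) and had 11.7, 10.3 and 10.6 CPM in sgCtrl_to_sgUFL1, 15.7, 13.5 and 14.1 in set 1, 17.5, 19.8 and 16.5 in set 2 and 14, 11.9 and 11.2 in sgUFM1. PSMG4 was higher in set 2 than in sgCtrl_to_sgUFL1 by 0.70 (SE 0.15, adjusted p = 0.0043) and lower in sgUFM1 than in set 2 by -0.53 (adjusted p = 0.002). Its difference of differences, -0.94 (SE 0.19, adjusted p = 0.0017), was the largest of the proteasome genes. PSMG3 passed only in the difference of differences, at -0.54 (adjusted p = 0.04), and PSMG2 passed nowhere.

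Of the chaperones of the 19S base, PSMD5 was the one that changed. It had 73.8, 85.5 and 91.3 CPM in sgCtrl_to_sgUFL1, 65.8, 72.7 and 67.4 in set 1, 64.5, 62.9 and 64.1 in set 2 and 69, 74.1 and 83 in sgUFM1. Set 2 lay below sgCtrl_to_sgUFL1 by a log2 change of -0.41, and sgUFM1 lay above set 2 by 0.25 (SE 0.08, edgeR adjusted p = 0.019). For PSMD5 the difference of differences was 0.52 (SE 0.14, adjusted p = 0.0087). PSMD9 and PSMD10 passed in no comparison.

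Of the activators, PSME4, the nuclear cap PA200 that opens the core without ATP, differed most. PSME4 (chromosome 2, 53864067 to 53970840, minus strand) had 200, 178 and 257 CPM in sgCtrl_to_sgUFL1, 167, 150 and 155 in set 1, 165, 135 and 144 in set 2 and 180, 191 and 201 in sgUFM1. The sgUFM1 and sgCtrl_to_sgUFL1 libraries overlapped, and both lay above all libraries of sets 1 and 2. The log2 change was -0.53 in set 2 against sgCtrl_to_sgUFL1 (SE 0.14, edgeR adjusted p = 0.012), 0.37 in sgUFM1 against set 2 (SE 0.08, adjusted p = 0.00077) and 0.28 in sgUFM1 against set 1 (SE 0.08, adjusted p = 0.047). In set 1 against sgCtrl_to_sgUFL1 the value was -0.41 (SE 0.14, adjusted p = 0.11). Its difference of differences was 0.79 (SE 0.17, adjusted p = 0.0028). PSME2, part of the interferon-responsive cap with PSME1, was lower in sgUFM1 than in set 2 by -0.20. PSME1, PSME3 and PSMF1 passed in no comparison.

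**Figure D4:**
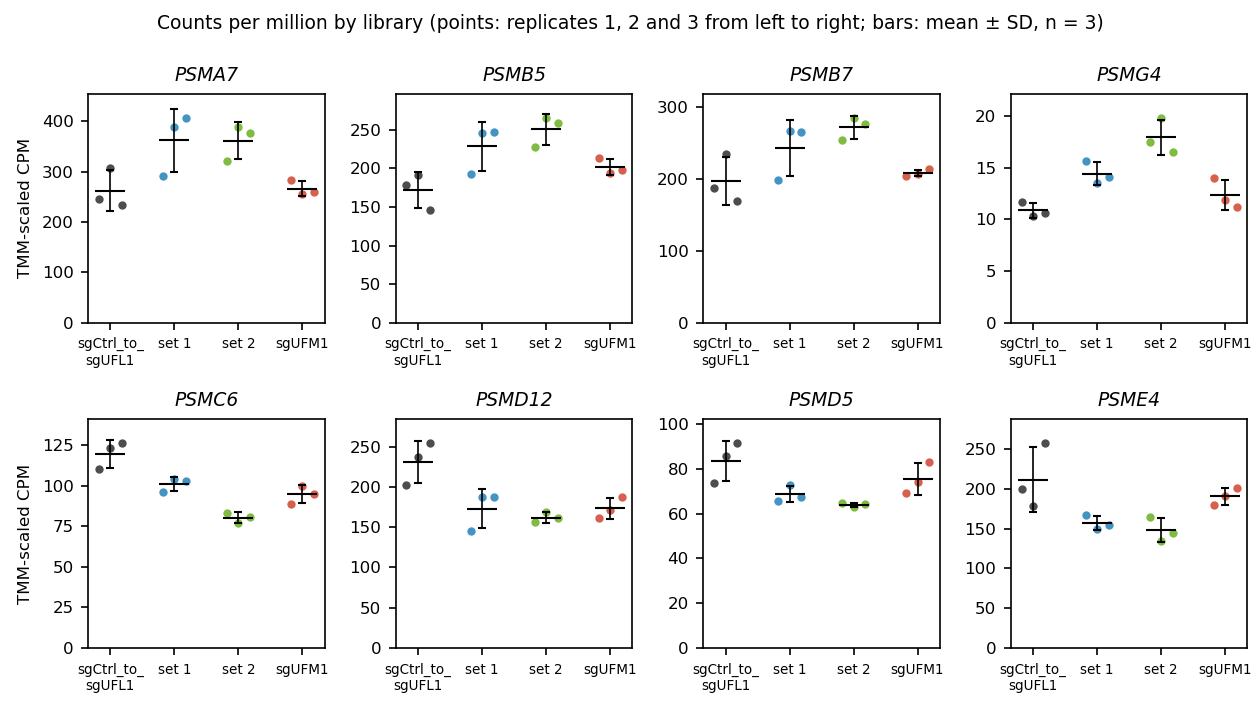
TMM-scaled CPM of 8 proteasome genes in each library, with the mean and SD of each group of 3 as bars; axes start at 0. PSMA7, PSMB5, PSMB7 and PSMG4 have their higher means in sets 1 and 2, while PSMC6, PSMD12, PSMD5 and PSME4 have them in sgCtrl_to_sgUFL1.

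The direction of a proteasome gene went with the GC content of its transcripts. In set 2 against sgCtrl_to_sgUFL1, the 4 higher genes had a median GC content of 52.2% (48.7% to 52.9%) and the 9 lower genes of 41.1% (36.9% to 45.7%), and the 2 ranges did not overlap. In sgUFM1 against set 2, the 4 higher genes had a median of 42% and the 10 lower genes of 52.4%, and in the difference of differences the medians were 40.3% and 52.7%. Over the 43 genes, the change correlated with GC content with Pearson's r = 0.76 in set 2 against sgCtrl_to_sgUFL1, -0.66 in sgUFM1 against set 2 and -0.74 in the difference of differences. The values over all genes tested were 0.69, -0.38 and -0.64, so the relation was not particular to the proteasome. These correlations are across genes, which share libraries and are not independent replicates.

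When offsets for GC content and length were added to the fit, the r over the 43 genes became -0.26, 0.18 and 0.22. In set 2 against sgCtrl_to_sgUFL1, PSMB7 (0.39) and PSMG4 (0.64) stayed higher and PSMG1 (-0.40) stayed lower, where 3.95% of all genes were higher and 3.09% lower. Between sgUFM1 and set 2, 0 genes were higher in sgUFM1 and 13 lower (background 16.1% and 16.7%). Those 13 were PSMA3, PSMA5, PSMA7, PSMB3, PSMB5, PSMB7, PSMC1, PSMD2, PSMD3, PSMD7, PSMD12, PSMD14 and PSMG4, from -0.15 to -0.55. Of the 14 genes called without the offsets, 8 were among them, and PSMA3, PSMA5, PSMC1, PSMD12 and PSMD14 were added. PSMD12 and PSMD14 turned in direction, since without the offsets they were at 0.11 and 0.12 and not called. The CPM of PSMD14 was higher in every sgUFM1 library (164, 167 and 178) than in set 2 (158, 157 and 155). With the offsets PSME4 was at 0.10 (edgeR adjusted p = 0.12) and PSMC6 at -0.04 (adjusted p = 0.62) in that comparison.

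In the difference of differences, the offsets left 0 genes higher and 4 lower (background 3.41% and 4.51%). The 4 were PSMG4 at -0.88 (SE 0.16, edgeR adjusted p = 0.0049), PSMA7 at -0.63 (SE 0.13, adjusted p = 0.0095), PSMB7 at -0.60 (SE 0.14, adjusted p = 0.017) and PSMB5 at -0.40 (SE 0.11, adjusted p = 0.035). The genes that had been higher were at 0.20 for PSME4 (adjusted p = 0.21), 0.14 for PSMD5 (adjusted p = 0.44), -0.07 for PSMD12 (adjusted p = 0.84) and -0.13 for PSMC6 (adjusted p = 0.52). Against set 1, PSMA7 in sgUFM1 was called with the offsets as well, at -0.38 (adjusted p = 0.034), and PSME4 was not, at 0.14 (adjusted p = 0.19). PSMA7 was thus lower in sgUFM1 than in either exchanged group with and without the offsets.

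**Figure D5:**
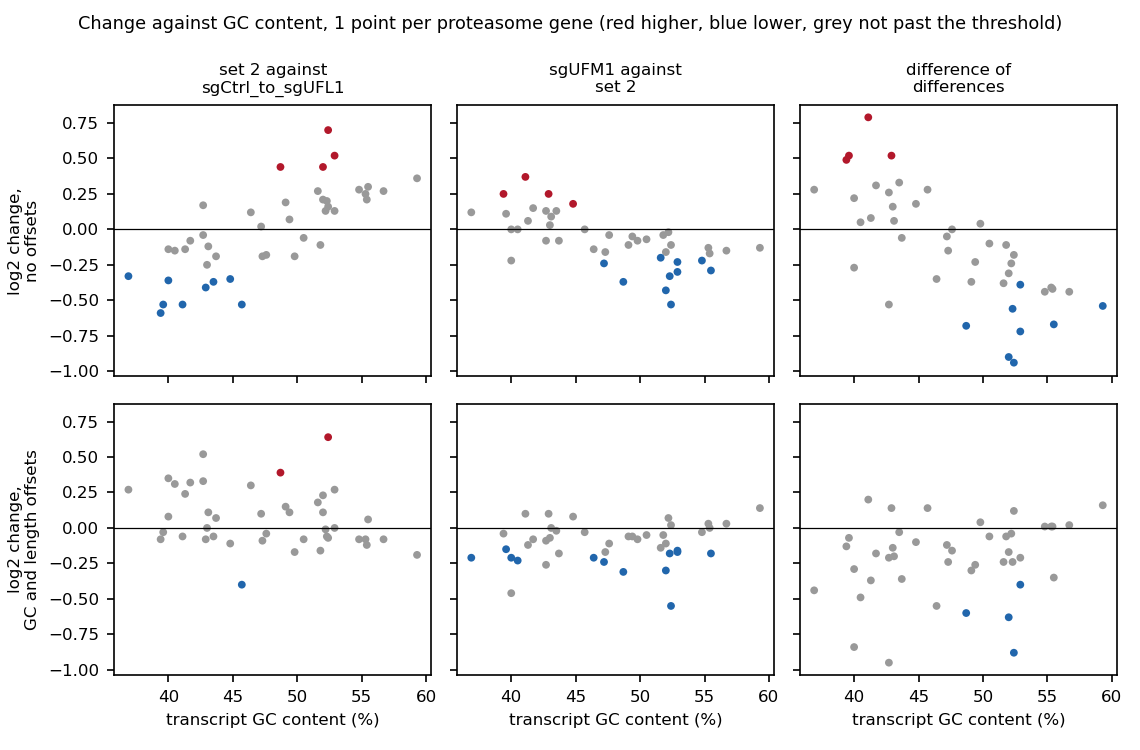
Log2 change of each of 43 proteasome genes against the GC content of its transcripts, without (upper row) and with (lower row) offsets for GC content and length. The upper row has r = 0.76, -0.66 and -0.74 from left to right, and the lower row r = -0.26, 0.18 and 0.22.

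The count of calls in sgUFM1 against set 1 depended on 1 library. With all 6 libraries, 37 of the 43 genes had a negative change and 1 was called lower. Without replicate 1 of set 1, 28 were called lower and 1 higher, where 14.6% of all genes were lower and 12% higher. PSMA7 was then at -0.58, PSMB3 at -0.48 and PSMD3 at -0.47 (log2), and the median over the 43 genes was -0.22. That library had the lowest share of its counts in proteasome genes (0.718%), beside 0.839% and 0.833% in the other libraries of the group. Leaving out replicate 2 of the controls, set 2 against sgCtrl_to_sgUFL1 gave 15 higher and 8 lower genes (background 22.1% and 22.9%). The 11 added higher genes were PSMB3, PSMB4, PSMB6, PSMC3, PSMC4, PSMC5, PSMD3, PSMD4, PSMD8, PSME2 and PSMG3, from 0.27 for PSMD4 to 0.51 for PSMG3.

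Several calls close to the threshold also turned on single libraries, with their direction kept. In sgUFM1 against set 1, the calls of PSMA7 and PSME4 were lost when any library other than replicate 1 of set 1 was left out, with edgeR adjusted p-values of 0.08 to 0.18 for PSMA7 and 0.068 to 0.19 for PSME4. In sgUFM1 against sgCtrl_to_sgUFL1, PSMG1 was lost without replicate 1 (-0.42, adjusted p = 0.16) or 2 (-0.51, adjusted p = 0.11) of sgUFM1, and PSMD12 without any of the 3 sgUFM1 libraries or replicate 3 of the controls (adjusted p = 0.074 to 0.21). In set 2 against sgCtrl_to_sgUFL1, PSMA7 and PSMB7 were lost without replicate 1 of the controls or replicate 2 or 3 of set 2 (adjusted p = 0.061 to 0.096), and PSME4 without replicate 2 or 3 of set 2 (adjusted p = 0.077 and 0.06). In sgUFM1 against set 2, PSMC6 was lost without replicate 2 of either group (adjusted p = 0.098 and 0.075), PSMD5 without 4 of the 6 libraries in turn and PSMB2 without 5 of the 6. The calls of PSMB5 and PSMG4 in set 2 against sgCtrl_to_sgUFL1, and those of PSMA7, PSMB5, PSMB7 and PSME4 in sgUFM1 against set 2, kept their side of the threshold with each library left out.

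Genes around the proteasome were taken from lists of other subunits, inducers and ubiquitin enzymes. Of 8 proteasome parts under other names, 0 were higher and 3 lower in sgUFM1 against set 2, where 19.3% of all genes tested were higher and 18.5% lower. POMP, which completes the core, had 144, 165 and 159 CPM in set 2 and 125, 128 and 130 in sgUFM1, a log2 change of -0.28 (SE 0.07, edgeR adjusted p = 0.003). The ubiquitin receptor ADRM1 was lower by -0.30 there. ADRM1 was higher in set 2 than in sgCtrl_to_sgUFL1 by 0.51 (adjusted p = 0.013), while there the deubiquitinases UCHL5 and USP14, which act on the 19S particle, were lower by -0.63 and -0.61 (adjusted p = 0.0026 and 0.0028). USP14 and UCHL5 were also lower in sgUFM1 against those controls, by -0.54 and -0.49. With the offsets, POMP was at -0.52 and ADRM1 at 0.09 in sgUFM1 against set 2. In set 2 against sgCtrl_to_sgUFL1 the offsets turned ADRM1 to -0.27 (adjusted p = 0.13), and UCHL5 (-0.09, adjusted p = 0.55) and USP14 (-0.17, adjusted p = 0.19) missed the threshold. In sgUFM1 against those controls USP14 passed with the offsets (-0.34, adjusted p = 0.014) and UCHL5 did not (-0.24, adjusted p = 0.054).

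The 10 genes of the NRF1 pathway showed no common direction. Between sgUFM1 and set 2, 4 were higher in sgUFM1 and 2 lower (19.3% and 18.5% of all genes). SYVN1, the ubiquitin ligase that keeps NRF1 low, was higher by 0.33 (edgeR adjusted p = 0.0013), NGLY1, the deglycosylase that activates it, was higher by 0.45 (adjusted p = 0.0025), and MAFK, its binding partner, was lower by -0.47 (adjusted p = 0.0011). SYVN1 was also higher in sgUFM1 against sgCtrl_to_sgUFL1 (0.38, adjusted p = 0.044). With the offsets, SYVN1 was at 0.48 and called in sgUFM1 against set 2, while NGLY1 (0.20, adjusted p = 0.12), MAFK (-0.15, adjusted p = 0.16) and SYVN1 against sgCtrl_to_sgUFL1 (0.19, adjusted p = 0.12) missed the threshold. NFE2L1 itself had means of 317 ± 51.2, 394 ± 45.1, 387 ± 12.6 and 403 ± 21.6 CPM (SD, n = 3) in sgCtrl_to_sgUFL1, set 1, set 2 and sgUFM1, and in sgUFM1 against sgCtrl_to_sgUFL1 it was at 0.34 with an adjusted p of 0.095. Against sgCtrl_to_sgUFL1, set 2 had 2 of them higher and 3 lower (17.4% and 18.4% of all genes).

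Enzymes that act upstream of the proteasome were counted in the same way. Of 9 E1 and proteasome-bound E3 enzymes, 7 were higher and 0 lower in sgUFM1 against set 2 (19.3% and 18.5% of all genes), and 0 were higher and 6 lower in set 2 against sgCtrl_to_sgUFL1 (17.4% and 18.4% of all genes). UBA6, an alternative ubiquitin-activating enzyme, had 94.4, 71.9 and 79.3 CPM in set 2 and 102, 110 and 121 in sgUFM1, a log2 change of 0.44 (SE 0.09, edgeR adjusted p = 0.00082). UBR2 and UBE3A were higher by 0.39 and 0.29. With the offsets, 3 of the 9 were higher in sgUFM1 against set 2 (16.1% of all genes) and 1 was lower in set 2 against sgCtrl_to_sgUFL1 (3.09% of all genes). In sgUFM1 against set 2, UBA6 was then at 0.07 (adjusted p = 0.37), UBR2 at 0.16 (adjusted p = 0.031) and UBE3A at -0.02 (adjusted p = 0.82). Of 10 ubiquitin receptors and shuttle factors, 5 were higher and 1 lower in sgUFM1 against set 2, both without the offsets (19.3% and 18.5% of all genes) and with them (16.1% and 16.7%), among them NUB1 at 0.28 (adjusted p = 0.0029). ZFAND5, a ubiquitin-binding activator of the 26S particle, was higher in sgUFM1 than in set 2 by 0.50 and higher than in set 1 by 0.39 (adjusted p = 0.0092), and with the offsets by 0.33 and 0.31.

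Genes of the segregase pathway were called in both directions. Of 12 genes of the segregase p97 and its cofactors, 3 were higher and 3 lower in sgUFM1 against set 2 (19.3% and 18.5% of all genes), and 2 were higher and 1 lower in set 2 against sgCtrl_to_sgUFL1 (17.4% and 18.4%). With the offsets the counts were 3 and 2, and 0 and 0. FAF2, a p97 adaptor at the endoplasmic reticulum, was higher in sgUFM1 than in set 2 by 0.25 (edgeR adjusted p = 0.0039). In set 1 against sgCtrl_to_sgUFL1 and in set 2 against set 1, at most 1 gene of any of these lists was called.

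Across the 12 libraries, most proteasome genes varied together. The Pearson correlation of a gene's log2 CPM with the median of the 43 genes was highest for PSMD13 (0.94), PSMB3 (0.90) and PSMC3 (0.89), exceeded 0.8 in 12 genes, and had a median of 0.70. Each gene is part of that median, and the libraries share depth and GC content, so these values describe the table. PSMD12 (0.30), PSMG1 (0.22), PSMC6 (0.10), PSMD5 (0.02) and PSMG4 (0.02) were hardly correlated with the rest, and PSME4 ran against them (-0.50). Among 10499 other protein-coding genes of at least 5 CPM, RANBP1 (0.99), PPIA (0.98), SLC35F2 (0.96), MRTO4 (0.95) and RPLP0 (0.95) were the most alike to the median of the proteasome genes over the 12 libraries. Each of these exceeded the 0.94 of PSMD13, so such likeness was not particular to the proteasome genes.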

How the data were processed

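RNA was sequenced from 12 libraries. The submitters' processing notes name featureCounts 2.0.0, STAR 2.7.7a, fastp 0.20.1 and the build GRCh38/hg38 without their roles. The authors deposited raw counts per gene and FPKM values per gene for the same libraries. How counting treated strand and shared bases is not stated in the labels. The column names of sgUFL1 and sgCtrl_to_sgUFM1 are exchanged between the count and FPKM tables. They were matched by the ratio of both values over 9901 genes, and neither naming was preferred.

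Counts were scaled by TMM and tested, after filterByExpr, with the quasi-likelihood test of edgeR 4.0.16 in R 4.3.3, on the 6 libraries of each pair of groups, or on all 12 for the difference of differences. P-values were adjusted by Benjamini-Hochberg over all genes with a threshold of 0.05. The script was tested on simulated data. Alternatives were DESeq2 1.42.0, its size factors in edgeR, no filter, all 12 libraries in the fit, a replicate block, lowess offsets for GC content and length (span 0.3), each library left out, and limma 3.58.1 on log2(FPKM + 0.5), with pseudocounts of 0.1 and 1, of the deposited FPKM values (at least 0.5 in 3 libraries). Replicates were no duplicates of each other, with a chi-square per gene of 2.41 to 34.9.

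The genes and lists were chosen with earlier results of these data known. Full statistics were given to at most 4 proteasome genes per direction with the smallest p in each comparison, and at most 3 genes per other list were named. Promoter sequences are RefSeq's. PSMA8 and PSMB11 did not pass the filter. Some results are not reported here.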

Additional observations from a re-analysis of the deposited data

Results flagged for a closer look

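The changes of 12 of the 43 tested proteasome genes differed between the 2 contrasts of a guide with its own controls. This was by the test of that difference (edgeR interaction term, adjusted over all genes). Of all genes tested, 17% were higher and 17.9% lower in it, so such calls were not particular to the proteasome genes. The difference of log2 changes was negative for PSMG4 (-0.94), PSMA7 (-0.90), PSMB5 (-0.72), PSMB7 (-0.68), PSMD3 (-0.67), PSMB3 (-0.56), PSMG3 (-0.54) and PSMD2 (-0.39). It was positive for PSME4 (0.79), PSMD5 (0.52), PSMD12 (0.52) and PSMC6 (0.49). These values are the same under either naming of the exchanged groups. With offsets for GC content and length, 4 of the 12 passed, which were PSMG4, PSMA7, PSMB7 and PSMB5. With these offsets, 3.41% of all genes were higher and 4.51% lower. No group had more than 3 libraries, so outlying libraries were not searched for by a rule.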

How the results depend on the processing

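Of 755 alternative values for 47 named changes of proteasome genes, UFL1 and UFM1, 647 kept their direction and side of the threshold, 78 kept the direction and fell short of it, 21 newly passed and 9 turned in direction. With offsets for GC content and length, 2 proteasome genes were higher and 1 lower in set 2 against sgCtrl_to_sgUFL1 (3.95% and 3.09% of all genes). The counts were 0 and 13 in sgUFM1 against set 2 (16.1% and 16.7%), and 0 and 4 in the difference of differences (3.41% and 4.51%). In sgUFM1 against set 1 they were 0 and 1, beside 650 and 530 of all 14977 genes tested. In sgUFM1 against sgCtrl_to_sgUFL1 they were 0 and 1, beside 646 and 594 of all 15035 genes. Of the named changes, the offsets turned PSMC6 in sgUFM1 against set 2 (-0.04), and PSMC6 and PSMD12 in the difference of differences (-0.13 and -0.07). They also turned UFL1 in sgUFM1 against sgCtrl_to_sgUFL1 (0.15), and UFM1 in set 1 (0.09) and set 2 (0.27) against those controls. Of the genes named from other lists, they turned ADRM1 in set 2 against sgCtrl_to_sgUFL1 (-0.27) and in sgUFM1 against set 2 (0.09), and UBE3A in the latter (-0.02). With all 12 libraries in the fit, the counts were 5 lower in sgUFM1 against sgCtrl_to_sgUFL1, 4 higher and 4 lower in set 1 against sgCtrl_to_sgUFL1, 1 higher and 3 lower in sgUFM1 against set 2, and 0 and 0 in sgUFM1 against set 1. DESeq2 gave 4 lower in sgUFM1 and 2 higher and 2 lower in set 1 against sgCtrl_to_sgUFL1, 3 lower in sgUFM1 against set 1 and 1 lower in set 2 against set 1. With no filter the counts were 2 higher in set 1 against sgCtrl_to_sgUFL1, 4 lower in sgUFM1 against set 1 and 2 lower in set 2 against set 1. Limma on log2 FPKM, at each of the 3 pseudocounts, gave 0 lower in sgUFM1 against sgCtrl_to_sgUFL1 and 0 higher and 0 lower in sgUFM1 against set 1. For the fit of all 12 libraries, DESeq2, no filter and limma, the share of all genes called was not determined. These counts can therefore not be told apart from a shift over all genes. The cause of these differences was not tested.

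With each library left out in turn, the counts higher and lower ran from 0 to 5 and 0 to 4 in sgUFM1 against sgCtrl_to_sgUFL1, 0 to 4 and 0 to 1 in set 1, and 2 to 15 and 3 to 10 in set 2 against those controls. They ran from 1 to 4 and 7 to 17 in sgUFM1 against set 2, 0 to 1 and 0 to 28 in sgUFM1 against set 1, 0 to 1 and 0 to 5 in set 2 against set 1, and 4 to 7 and 4 to 16 in the difference of differences. The highest values came without replicate 2 of sgCtrl_to_sgUFL1 (5, 4, 4, 1, 15 and 16), replicate 1 of those controls (10 and 7), replicate 1 of set 1 (28, 1 and 5) and replicate 1 of set 2 (17). The share of all genes called moved as well. In sgUFM1 against set 1, 4.57% were higher and 5.15% lower with all libraries, and 12% and 14.6% without replicate 1 of set 1. In set 2 against sgCtrl_to_sgUFL1 the shares were 17.4% and 18.4%, and 22.1% and 22.9% without replicate 2 of those controls. They were not determined for the other libraries left out. UFL1 in sgUFM1 against sgCtrl_to_sgUFL1 ran from -0.25 to 0.06, and UFM1 in set 2 against set 1 from -0.03 to 0.06.

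Whether the replicate numbers pair the libraries could not be decided, since deviations from means of 3 libraries cannot exclude pairing. Correlations of same-numbered deviations from the group means ran from -0.27 to 0.45. Both extremes came from sgCtrl_to_sgUFL1 with set 1, with 0.43, 0.45 and -0.27 for replicates 1, 2 and 3. By pair of groups, 0 to 2 of the 3 libraries correlated best with their own number. With a replicate block, the counts were 4 lower in sgUFM1 against sgCtrl_to_sgUFL1, 0 higher and 0 lower in sgUFM1 against set 1 and 2 lower in set 2 against set 1, and the other counts lay within 1.5 times those without the block. The share of all genes called with the block was not determined.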
